A study of Mus musculus with 10 samples.

Results

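The genes of oxidative phosphorylation were followed in the stromal vascular fraction (SVF) of mouse inguinal white adipose tissue (iWAT). Members were taken by symbol: Nduf, Uqcr, Sdha to Sdhd, Atp5, Cox4 to Cox8, mt-Nd, mt-Co, mt-Atp and mt-Cytb, leaving out Ndufaf assembly genes and pseudogene symbols. This gave 95 of the 14623 genes in the count table. Of these, 85 are encoded in the nucleus and 10 in the mitochondrial DNA, and the nuclear and mitochondrial members were summed apart. By symbol prefix alone, the nuclear members divide into 38 for complex I, 8 for complex II, 8 for complex III, 16 for complex IV and 15 for complex V. A prefix need not match the complex a protein is part of, and 6 of these members are assembly or accessory genes. Of the nuclear members, 83 had at least 1 UMI. The mitochondrial members divide into 5 for complex I, 1 for complex III, 3 for complex IV and 1 for complex V.

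The study asked what loss of BBS8 does to the cells of the iWAT. BBS8, encoded by Ttc8, belongs to the BBSome, a protein complex that moves cargo at the primary cilium. Cells came from a global knockout mouse (Bbs8-/-) and a wild-type mouse (Bbs8+/+), both lean and 7 weeks old. The study describes the controls of these mice as littermates of the same age, and the labels give neither sex nor any treatment. Seq-Well S3 pairs cells with barcoded beads in an array and tags each captured polyadenylated RNA with a unique molecular identifier (UMI). With 1 mouse for each genotype, no test between the genotypes was possible, and every difference below is between these mice.

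Oxidative phosphorylation is the last stage of respiration in the inner mitochondrial membrane. Complex I takes electrons from NADH and complex II from succinate, complex III passes them to cytochrome c and complex IV to oxygen, and complex V, the ATP synthase, uses the resulting proton gradient to make ATP. Most subunits are encoded in the nucleus and imported, whereas a small set is transcribed from the circular mitochondrial genome as long precursors that are cut at tRNAs and then polyadenylated. In white fat the pathway is known for its part in adipocyte differentiation, in which mitochondria multiply. Complex II has no subunit from the mitochondrial genome.

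The Bbs8-/- mouse gave 8985 cells with 3144195 UMIs and a median of 251 UMIs per cell, and the Bbs8+/+ mouse gave 1929 cells with 715989 UMIs and a median of 278. Each genotype held 5 barcode sets, with 1635 to 2005 cells each in Bbs8-/- and 196 to 768 in Bbs8+/+. The series text names a single mouse for each genotype, so the sets were taken as technical parts of a preparation. Their codes begin with KO5 or KO6 and WT3 or WT4 and end with p1 to p3, which occur in both genotypes, and neither element was explained. According to the study's methods, each sample was spread over a pair of Seq-Well arrays and amplified in pooled PCR reactions, which the codes may stand for, and if the numbers were animals the spread over sets would also hold that between mice. The labels number the samples p1 and p2 in each genotype (2 and 3 in Bbs8-/-, 3 and 2 in Bbs8+/+), and the set codes occur equally often (KO5 and KO6 in 2 and 3 sets, WT3 and WT4 in 3 and 2), but no name links a code to a label. Ttc8 had 0 UMIs in Bbs8-/-, which allows up to 0.954 CPM (UMIs of a gene per 1000000 UMIs of the cells summed), and 5 UMIs in Bbs8+/+, all in 1 set. A barcode was found in more than 1 set for 103 cells (74 in Bbs8-/- and 29 in Bbs8+/+). Cells with more than 15% of UMIs from all mitochondrial rows, below the limit of 20% that the authors set, made up 8.30% of Bbs8-/- and 14.5% of Bbs8+/+ cells. Intervals below are exact 95% intervals and cover counting error only.

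Several mitochondrial members have near-identical copies in the nuclear genome, and reads of 61 bases, the length sequenced here, cannot always be told apart. The pair of mt-Co2 and its nuclear copy Gm28661 shows the extreme, and the pair of mt-Nd2 and Gm13339 shows a copy that differs. The 61-base windows near the 3' end were read from GRCm38, with the gene positions of GENCODE vM21, and capitals mark mismatches.
mt-Co2, chrM:7633-7693, plus strand: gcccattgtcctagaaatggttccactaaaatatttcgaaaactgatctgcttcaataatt
Gm28661, chr1:24614885-24614945, minus strand: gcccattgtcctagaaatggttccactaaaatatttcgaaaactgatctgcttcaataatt
mt-Nd2, chrM:4891-4951, plus strand: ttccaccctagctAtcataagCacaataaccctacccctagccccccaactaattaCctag
Gm13339, chr2:22590024-22590084, minus strand: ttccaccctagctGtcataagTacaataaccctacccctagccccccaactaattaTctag

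The mt-Co2 window had no mismatch to its copy, and the mt-Nd2 window had 3. Of all 61-base stretches of a gene, 100% of mt-Co2, 99.9% of mt-Co3 and 99.5% of mt-Atp6 were found unchanged in annotated transcripts of nuclear genes. Copies outside the annotated transcripts of GENCODE vM21 were not sought. The share was 61.9% for mt-Nd4 and 46.1% for mt-Co1, with 0% and 100% over the last 300 bases. It was 7.1% for mt-Nd2 (28.8% over the last 300 bases), 4.1% for mt-Nd5 and 0% for mt-Cytb, mt-Nd1 and mt-Nd6. The members with nearly every stretch copied were also the rarest, with 11 UMIs of mt-Co2, 11 of mt-Atp6 and 137 of mt-Co3 in Bbs8-/- and 0, 2 and 25 in Bbs8+/+. Their nuclear copies on chromosome 1 had rows of their own, in which Gm28661 had 25 UMIs in Bbs8-/- and 0 in Bbs8+/+. Gm10925, the copy of mt-Atp6, had 12 and 0, and Gm28437, the copy of mt-Co3, had 124 and 17. The levels of mt-Co2, mt-Co3 and mt-Atp6 are therefore uncertain, as is that of mt-Co1, since capture by the poly-A tail reads the 3' end, and mt-Nd3, mt-Nd4l and mt-Atp8 were not analysed here.

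The mitochondrial members were higher in the Bbs8-/- mouse, and the nuclear members were close in both mice. Over all cells the mitochondrial sum was 9702, 9299, 9278, 9435 and 9619 CPM in the 5 Bbs8-/- sets. It was 5293, 4485, 5073, 5976 and 5041 CPM in the 5 Bbs8+/+ sets. Every Bbs8-/- set lay above every Bbs8+/+ set. Pooled, the sum was 9459 CPM against 5390, a log2 ratio of Bbs8-/- over Bbs8+/+ of 0.81 (0.76 to 0.86), from 29740 and 3859 UMIs. Over mt-Nd1, mt-Nd4, mt-Nd5, mt-Nd6 and mt-Cytb alone, it was 0.76. No stretch of the last 300 bases of these was found in annotated nuclear transcripts. The nuclear sum was 9525, 9375, 9683, 9740 and 9240 CPM in the Bbs8-/- sets and 8285, 10587, 9755, 10779 and 9189 CPM in the Bbs8+/+ sets. These ranges overlap, and the Bbs8-/- sets all lay inside the range of the Bbs8+/+ sets. Pooled, it was 9523 CPM (9415 to 9631) against 10010 (9780 to 10244), a log2 ratio of -0.07 (-0.11 to -0.03).

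The mitochondrial ribosomal RNAs, which are copied from the same DNA but are no members, did not share the rise. Their sum (mt-Rnr1 and mt-Rnr2) was 72945 CPM in Bbs8-/- and 80070 in Bbs8+/+, a log2 ratio of -0.13, and the sets overlapped. Mitochondrial member UMIs per mitochondrial rRNA UMI were 0.130 in Bbs8-/- (sets 0.125 to 0.137) and 0.0673 in Bbs8+/+ (sets 0.0627 to 0.0723). Mitochondrial member UMIs per nuclear member UMI were 0.993 (sets 0.958 to 1.04) against 0.538 (sets 0.424 to 0.639). All mt- rows together held 8.24% of UMIs in Bbs8-/- and 8.55% in Bbs8+/+, so the total that the authors filtered on was close in both mice while its makeup was not. With cells of at most 10% mt- UMIs alone, the mitochondrial ratio was 0.96 and the nuclear ratio 0.00.

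The mice differ in which cells they hold, so the sums were also taken within classes. Clusters were made without any member or mt- row among the features, and 12 of 16 were named from marker genes into 10 classes. Stromal cells (1283 in Bbs8-/- and 558 in Bbs8+/+) are the fibroblast-like cells that include the adipocyte precursors, and all 8 of their markers, among them Pdgfra, Dcn and Col1a1, were detected in both mice. They divide into P1-like (425 and 171 cells), P2-like (600 and 269) and P3-like (258 and 118). The other classes are endothelial-like (584 and 173), pericyte-like (132 and 44), T cell-like (1092 and 127), B cell-like (1098 and 86), macrophage-like (515 and 134), monocyte-like (435 and 151), dendritic-like (70 and 8), epithelial-like (180 and 140) and mitotic-like (138 and 40). The dendritic-like cluster had none of its markers among its 10 leading genes and 8 cells in Bbs8+/+, so its values carry little weight. The epithelial-like cells of the mice differed in their own markers, since 7 of 7 were detected in Bbs8+/+ and 3 in Bbs8-/-, where the keratins Krt5 and Krt14 and the milk caseins Csn2 and Csn3 had no UMI. Their markers summed to 3333 CPM in Bbs8-/- and 6810 in Bbs8+/+, with overlapping sets. The markers of T cell-like cells summed to 7729 against 4609 CPM, with every Bbs8-/- set above every Bbs8+/+ set. Those of macrophage-like cells summed to 18409 against 23801 CPM, with every Bbs8+/+ set above. What these differences add to the values of the 3 classes was not tested. The Bbs8+/+ sets held 3 to 65 T cell-like cells. The 4 unnamed clusters held 3399 and 466 cells. With a naming threshold of 0.5 in place of 1, the largest of them (2008 cells) was named stromal and that of 636 cells B cell-like. The mitochondrial ratio of stromal cells was then 0.98, the highest of its alternatives. This threshold was tried after the data were seen. Weighting the classes of both mice to the shares of Bbs8+/+ gave log2 ratios of 0.68 for the mitochondrial and -0.06 for the nuclear sum.

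In stromal cells the mitochondrial sum was 6752, 6203, 6909, 6684 and 5926 CPM in the Bbs8-/- sets. It was 4689, 3169, 3351, 4175 and 3527 CPM in the Bbs8+/+ sets. The sets did not overlap, and the pooled log2 ratio was 0.75 (0.65 to 0.85). The nuclear sum of stromal cells was 7904, 8162, 8580, 7867 and 7733 CPM in Bbs8-/- and 6986, 7616, 6489, 8841 and 6504 CPM in Bbs8+/+. Here 1 Bbs8+/+ set lay above all the Bbs8-/- sets and 4 lay below them, and the pooled log2 ratio was 0.06 (-0.02 to 0.13). The mitochondrial ratio was 0.86 in P1-like, 0.70 in P2-like and 0.75 in P3-like cells, and the nuclear ratio was -0.10, 0.09 and 0.21. Of 21 marker lists, 5 had every Bbs8-/- set above every Bbs8+/+ set inside this class (T cell, B cell, macrophage, NK and mitotic) and 2 had the reverse (P2 and P3). The 8 T cell markers summed to 268 to 569 CPM in the Bbs8-/- sets and 0 to 194 in the Bbs8+/+ sets, and the 8 B cell markers to 449 to 882 and 0 to 211. The macrophage markers summed to 379 to 548 CPM against 64.7 to 319, the NK markers to 8.82 to 59.2 against 0 to 8.79 and the mitotic markers to 115 to 214 against 0 to 53.2. The P2 markers summed to 6618 to 8106 CPM against 9753 to 11755 and the P3 markers to 1398 to 2079 against 2428 to 3351. Without every cell that held a UMI of the T cell, B cell, macrophage or monocyte lists, the mitochondrial ratio in stromal cells was 0.67 and the nuclear ratio 0.15, and without those of the mitotic list as well they were again 0.67 and 0.15. The part of the P2 and P3 genes was not tested, beyond the ratios within the stromal subclasses.

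**Figure D1:**
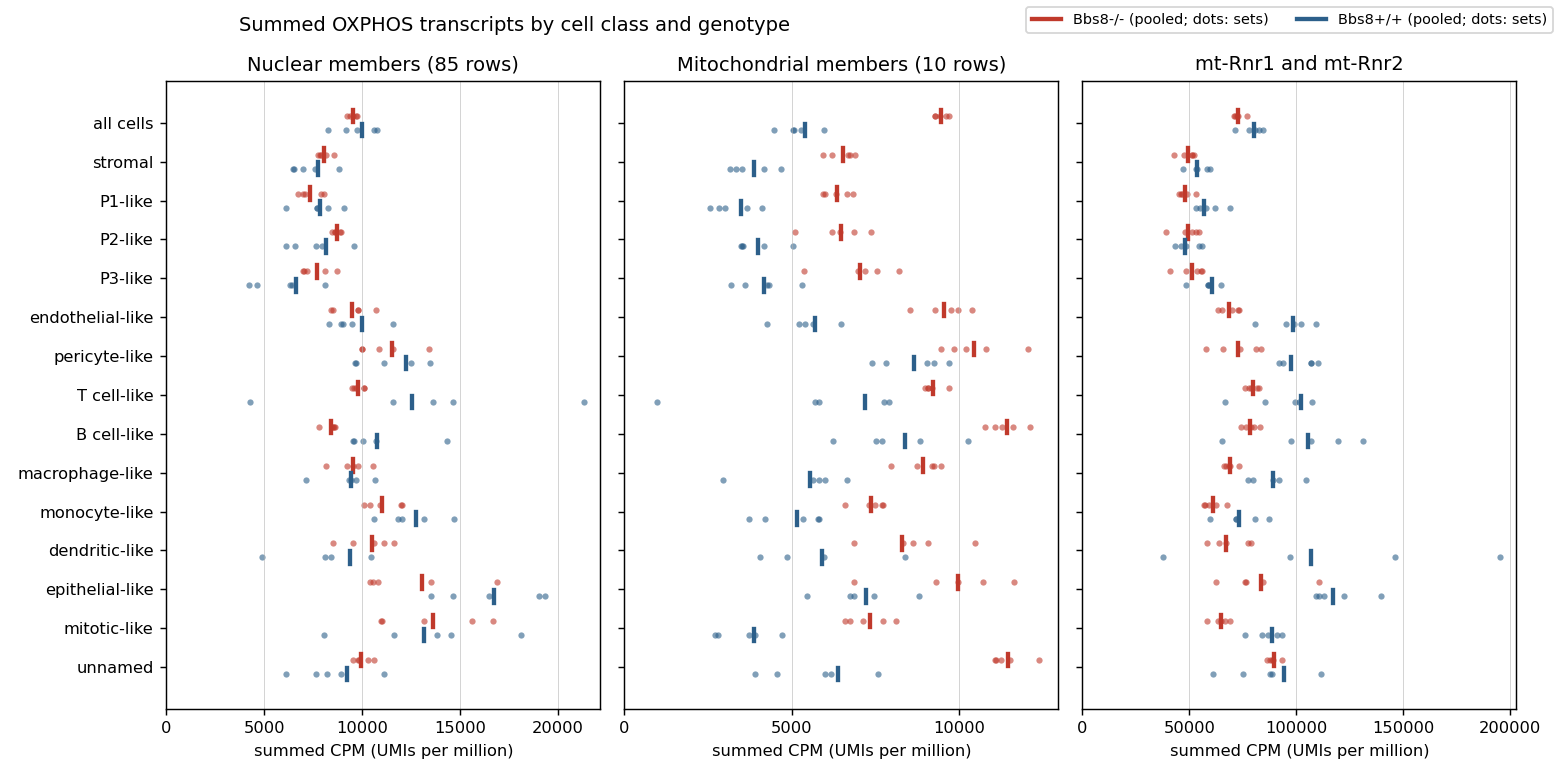
Summed CPM (linear axes) of the 85 nuclear members, the 10 mitochondrial members and the mitochondrial rRNAs in all cells and in each cell class, with a dot for each barcode set and an upright bar for the pooled value of each mouse (red for Bbs8-/-, blue for Bbs8+/+). The mitochondrial sums of all cells lie between 9278 and 9702 CPM in the Bbs8-/- sets and between 4485 and 5976 CPM in the Bbs8+/+ sets, and the nuclear sums overlap.

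The mitochondrial sum was higher in Bbs8-/- in 10 of the 10 named classes, with log2 ratios from 0.27 to 0.92, and in 7 of them every Bbs8-/- set lay above every Bbs8+/+ set. The sets overlapped in pericyte-like, dendritic-like and epithelial-like cells. The ratio was highest in mitotic-like cells (7340 CPM against 3884, log2 0.92). It was 0.75 in endothelial-like cells (9553 against 5693) and 0.69 in macrophage-like cells (8943 against 5543). It was 0.36 in T cell-like (9234 against 7187), 0.44 in B cell-like (11430 against 8397) and 0.27 in pericyte-like cells (10458 against 8658). This order of the classes holds for library totals alone. With TMM factors, which moved the median gene by 0.36 in T cell-like, 0.51 in B cell-like and 0.49 in pericyte-like cells, the ratios of these were 0.72, 0.96 and 0.76. Those of stromal and endothelial-like cells were then 0.62 and 0.83, that of epithelial-like cells was the lowest at 0.39, and 10 of the 10 classes stayed above 0.

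The nuclear sum had no common direction, with ratios above 0 in 4 of the 10 named classes and below 0 in 6. It was lower in Bbs8-/- in T cell-like (9819 CPM against 12554, log2 -0.35), B cell-like (8390 against 10749, log2 -0.36) and epithelial-like cells (13083 against 16717, log2 -0.35), but with TMM factors the ratios were 0.01, 0.15 and -0.42, and 7 of the 10 classes lay above 0. The epithelial-like value compares cells that differ in their markers. Over the alternatives it ranged from -0.50 to -0.18, with the latter for cells with at least 200 genes. Only in B cell-like cells did every Bbs8+/+ set lie above every Bbs8-/- set, and those Bbs8+/+ sets held 5 to 46 cells. The mitochondrial rRNA ratio was below 0 in 10 of the 10 named classes with library totals, from -0.67 in dendritic-like to -0.11 in stromal cells, but in 7 with TMM factors, which gave 0.06 in pericyte-like, 0.09 in B cell-like and 1.07 in dendritic-like cells. The unnamed clusters had 11460 against 6375 CPM of mitochondrial members (log2 0.85) and 9954 against 9208 of nuclear members (log2 0.11).

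Across classes the nuclear members were lowest in stromal cells and among the highest in epithelial-like cells. As the mean of both mice, the nuclear sum was 7916 CPM in stromal cells and 14900 in epithelial-like cells. Within single barcode sets with at least 20 cells of both classes, stromal cells lay below monocyte-like cells in 10 of 10 sets, below macrophage-like cells in 9 of 9 and below T cell-like cells in 8 of 8, but below endothelial-like cells in 9 of 10 and below B cell-like cells in 5 of 6. Epithelial-like cells lay above endothelial-like cells in 8 of 8 sets and above macrophage-like cells in 7 of 7, but above mitotic-like cells (13388 CPM) in 1 of 4. Pericyte-like (11887 CPM), monocyte-like (11874) and T cell-like cells (11187) followed. Dendritic-like (9939 CPM), endothelial-like (9748), B cell-like (9570) and macrophage-like cells (9490) had close means, and endothelial-like cells lay above macrophage-like cells in 6 of 9 sets.

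The mitochondrial members had another order. Stromal cells were again lowest (5209 CPM), and B cell-like cells were highest (9913 CPM), followed by pericyte-like (9558) and epithelial-like cells (8591). B cell-like cells lay above T cell-like, endothelial-like, macrophage-like and monocyte-like cells in 6 of 6 sets each, but above pericyte-like cells in 3 of 5 and epithelial-like cells in 4 of 5. Monocyte-like cells (6268 CPM) lay above stromal cells in 9 of 10 sets. Mitotic-like cells, near the top for the nuclear sum, had 5612 CPM of mitochondrial members. These orders are descriptions, since classes were built from the same cells.

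The mitochondrial members were described one by one, in the order of the complexes. mt-Nd1 (chromosome M, 2751 to 3707), a membrane subunit of complex I, was 2867, 2742, 2804, 2639 and 2728 CPM in the Bbs8-/- sets and 1862, 1820, 1928, 2206 and 1757 CPM in the Bbs8+/+ sets. The sets did not overlap, and its log2 ratio (with 5 CPM added to each side, as for all single genes) was 0.47. mt-Nd2, another membrane subunit, was 1133, 1014, 1004, 1199 and 1136 CPM against 523, 340, 609, 612 and 518 CPM, with no overlap and a ratio of 1.02. mt-Nd4, a proton-pumping subunit, was 1682, 1649, 1452, 1650 and 1473 CPM against 837, 533, 899, 803 and 879 CPM, with a ratio of 0.99. mt-Nd5, also a proton-pumping subunit, was 723, 863, 732, 732 and 797 CPM against 450, 230, 203, 438 and 439 CPM, with a ratio of 0.98. For each of these complex I genes the lowest Bbs8-/- set lay above the highest Bbs8+/+ set, and mt-Nd1 had the smallest ratio of them.

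mt-Nd6 is transcribed from the opposite strand to the other mitochondrial members (chromosome M, 13552 to 14070, minus strand). It had 204 UMIs in Bbs8-/- and 27 in Bbs8+/+, 64.9 against 37.7 CPM, and its sets overlapped with 2 Bbs8+/+ sets at 0. mt-Cytb (chromosome M, 14145 to 15288), the cytochrome b of complex III, was 1713, 1449, 1785, 1632 and 1777 CPM in the Bbs8-/- sets and 743, 781, 826, 912 and 778 CPM in the Bbs8+/+ sets. Its sets did not overlap, and its ratio was 1.00. mt-Co1, the catalytic subunit of complex IV, was 1459, 1474, 1399, 1468 and 1582 CPM against 826, 754, 536, 889 and 626 CPM, with no overlap and a ratio of 0.92, which carries the limit of its copied 3' end. mt-Co3, a further complex IV subunit, was 43.6 against 34.9 CPM with overlapping sets, and the UMIs of mt-Co2 and mt-Atp6 were too few for a ratio.

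Of the 7 mitochondrial members with at least 200 UMIs over both mice, 6 were higher in Bbs8-/- by 1.5-fold or more, all but mt-Nd1. Over all 3659 genes with that many UMIs, 20.2% were higher by that fold and 11.7% lower. For 6 of the 7, all but mt-Nd6, every Bbs8-/- set lay above every Bbs8+/+ set, which held for 14.7% of all such genes. The opposite, every Bbs8+/+ set above, held for 8.66% of them. The share of mt-Nd1 among mitochondrial member UMIs was 29.1% in Bbs8-/- (sets 28.0 to 30.2%) and 36.9% in Bbs8+/+ (sets 34.9 to 40.6%), with no overlap. In stromal cells this share was 32.2% against 39.9%, and the sets overlapped.

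Over the 10 named classes, mt-Nd2, mt-Nd4, mt-Co1 and mt-Cytb were each higher in Bbs8-/- in 10 of 10. mt-Nd5 was higher in 9, and mt-Nd1 in 8. The exceptions were T cell-like and dendritic-like cells for mt-Nd1 and dendritic-like cells for mt-Nd5, and they hold for library totals alone, since with TMM factors or DESeq2 size factors all 6 genes were above 0 in 10 of 10. In T cell-like cells mt-Nd1 was 2594 against 2850 CPM (log2 -0.14, and 0.22 with TMM factors) while mt-Cytb was 1615 against 1031 CPM (log2 0.65, and 1.01). In pericyte-like cells mt-Cytb was 2047 against 1970 CPM (log2 0.05), the lowest of its ratios over these classes.

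**Figure D2:**
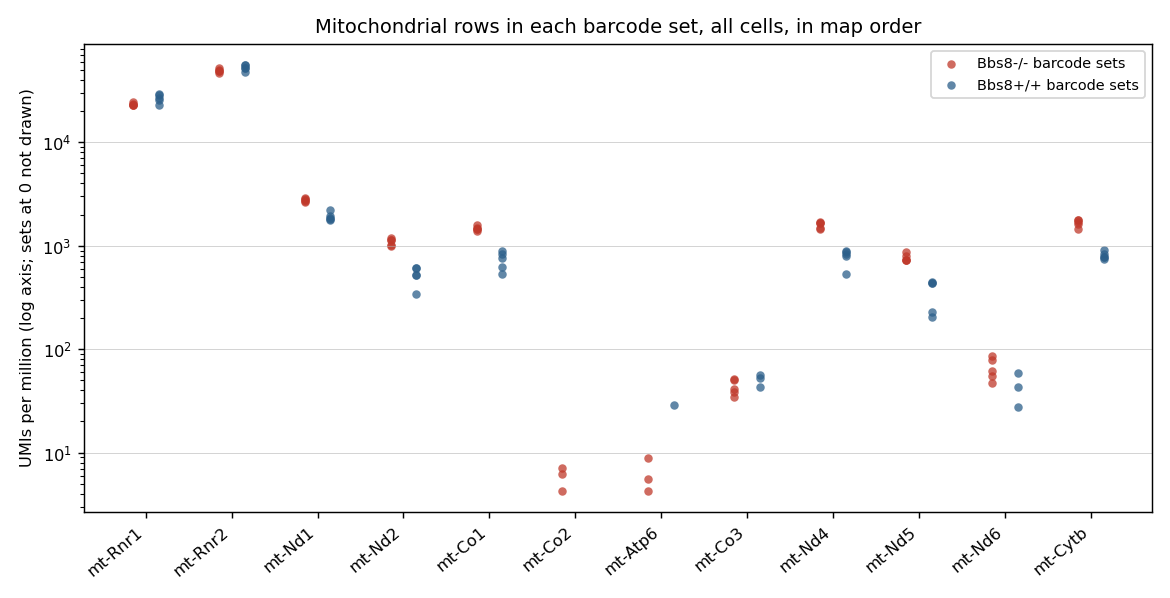
Level in CPM (log axis) of the mitochondrial rRNAs and each mitochondrial member in all cells, with a dot for each of the 10 barcode sets (red for Bbs8-/-, blue for Bbs8+/+), genes in map order and sets at 0 not drawn. The Bbs8-/- and Bbs8+/+ sets are apart for mt-Nd1, mt-Nd2, mt-Nd4, mt-Nd5, mt-Cytb and mt-Co1, and overlap for mt-Nd6 and mt-Co3.

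The nuclear members moved unevenly from complex to complex. Complex II, which feeds electrons from succinate, was the only nuclear complex sum with all Bbs8-/- sets (580 to 671 CPM) above all Bbs8+/+ sets (377 to 555 CPM), with pooled values of 620 against 496 CPM and a log2 ratio of 0.32 (0.16 to 0.49). The nuclear parts of complex I (3284 against 3712 CPM, log2 -0.18) and complex IV (1992 against 2268 CPM, log2 -0.19) were lower in Bbs8-/-. Complex III (1058 against 1032 CPM) and complex V (2569 against 2501 CPM) both had ratios of 0.04. The mitochondrial part had ratios of 0.74 for complex I, 1.01 for complex III and 0.91 for complex IV, with no overlap of the sets in each. In stromal cells the complex II sum was 545 against 361 CPM, with overlapping sets.

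Of the 85 nuclear members, 62 had at least 200 UMIs over both mice. Of these 62, 4 were higher by 1.5-fold or more (background 20.2%) and 11 were lower (background 11.7%). Their median log2 ratio was -0.12, beside 0.10 over all genes with that many UMIs, and 25 lay above 0 and 37 below. For 4 members every Bbs8-/- set lay above every Bbs8+/+ set (background 14.7%) and for 3 the reverse (background 8.66%). Scaling by TMM factors in place of library totals moved the median of all genes by -0.15 and gave 1 higher and 15 lower members, where 14.2% of all genes were then higher and 16.6% lower. DESeq2 size factors gave 1 and 16, where the shares of all genes were 13.8% and 17.2%. Without the set WT4_p2, which holds 768 of the 1929 Bbs8+/+ cells, 5 of 61 members were lower in place of 11, where 13.1% of all genes were lower. The members under 200 UMIs are 23, among them Cox4i2 and Ndufa4l2 with none.

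Complex I held 29 such members, of which 1 was higher (background 20.2%) and 5 were lower (background 11.7%), with a median of -0.14. Ndufa13, the complex I member with the most UMIs, was 150, 177, 169, 148 and 123 CPM in the Bbs8-/- sets and 126, 211, 145, 270 and 137 CPM in the Bbs8+/+ sets, with a ratio of -0.40. Ndufa5, an accessory subunit, was 55.8, 38.9, 61.6, 69.9 and 43.7 CPM against 62.8, 91.9, 159, 174 and 115 CPM. Its ratio was -1.22, and 1 Bbs8+/+ set lay inside the Bbs8-/- range. Ndufb7, another accessory subunit, was 138, 157, 137, 126 and 99.8 CPM against 94.1, 266, 188, 254 and 187 CPM, with a ratio of -0.70, and it was below 0 in 10 of the 10 named classes with library totals but in 5 with TMM factors.

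In complex II, Sdha, the flavoprotein that oxidises succinate, was 223, 246, 262, 211 and 286 CPM in the Bbs8-/- sets and 209, 184, 72.5, 174 and 194 CPM in the Bbs8+/+ sets. The sets did not overlap, by a narrow margin, and the ratio was 0.48. Sdhb, the iron-sulfur subunit, was 139 against 151 CPM, and the membrane anchors were close, with 70.3 against 79.6 CPM for Sdhc and 47.7 against 41.9 CPM for Sdhd. The other 4 rows of complex II are its assembly factors, Sdhaf1 to Sdhaf4, each under 200 UMIs. Sdhaf2, which helps to attach the flavin to Sdha, had 169 and 17 UMIs (53.8 against 23.7 CPM), and Sdhaf1 had 84 and 6. The complex II sum therefore rests on Sdha and these assembly factors, which were looked at after the sum had been seen.

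Complex III held 8 members with at least 200 UMIs, 1 higher (background 20.2%) and none lower (background 11.7%), with a median of -0.01. Uqcrfs1, the Rieske iron-sulfur protein, was the higher one (108 against 61.4 CPM, log2 0.77, overlapping sets), and it is named because its value was seen, as is Atp5c1 of complex V. Uqcrh, the hinge protein next to cytochrome c1, had the most UMIs in the complex. It was 262, 287, 271, 275 and 234 CPM in the Bbs8-/- sets and 220, 211, 174, 369 and 245 CPM in the Bbs8+/+ sets, and its ratio was -0.09. A single Bbs8+/+ set, WT4_p2, was the highest of all 10, and the 3 lowest were Bbs8+/+ sets too.

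In complex IV, 10 nuclear members had at least 200 UMIs, none was higher (background 20.2%) and 3 were lower (background 11.7%), with a median of -0.31. Cox5b, the zinc-binding subunit, was 66.9, 56.6, 63.0, 62.8 and 73.3 CPM in the Bbs8-/- sets and 115, 138, 87.0, 135 and 122 CPM in the Bbs8+/+ sets. Every Bbs8+/+ set lay above, and the ratio was -0.91. Cox6b1, which links the monomers of the complex, was 160, 188, 173, 184 and 134 CPM against 188, 340, 362, 296 and 238 CPM, with every Bbs8+/+ set above by a margin of under 1 CPM (187.5 against 188.3), and its ratio was -0.74. It was below 0 in 9 of the 10 named classes with library totals and in 7 with TMM factors. Cox4i1, the nuclear member with the most UMIs (2831 over both mice) and the regulatory subunit that can bind ATP, was 734, 773, 697, 823 and 694 CPM against 617, 689, 551, 672 and 821 CPM. The sets overlapped, and its ratio was 0.12 (plain ratio -0.02 to 0.26).

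Complex V held 12 members with at least 200 UMIs, 2 higher (background 20.2%) and 3 lower (background 11.7%), with a median of 0.19. Atp5a1, the alpha subunit of the catalytic head, was 437, 478, 472, 488 and 432 CPM in the Bbs8-/- sets and 366, 533, 420, 366 and 317 CPM in the Bbs8+/+ sets, with a ratio of 0.25. The beta subunit Atp5b, which carries the catalytic sites, was 379 against 381 CPM pooled, with a ratio of -0.01. Atp5f1, subunit b of the peripheral stalk, was 262, 244, 258, 240 and 268 CPM against 199, 156, 159, 155 and 166 CPM, with no overlap and a ratio of 0.62. Atp5c1, the gamma subunit of the rotor, was 249 against 158 CPM with no overlap and a ratio of 0.64. Atp5k, the small subunit e that takes part in joining ATP synthases into dimers, was 72.5, 35.4, 73.0, 59.9 and 51.5 CPM against 136, 138, 72.5, 214 and 115 CPM. Its ratio of -1.36 was the lowest of all members with at least 200 UMIs, a single Bbs8+/+ set overlapped, and it was below 0 in 9 of the 10 named classes, all but dendritic-like, also with TMM factors.

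The other 6 members past 1.5-fold to the lower side were Cox6c, Atp5e, Ndufs6, Atp5j2, Ndufa11 and Ndufb9, with ratios from -0.65 to -0.59 and overlapping sets, and they too are named after their values were seen. In stromal cells only 3 nuclear members had 200 UMIs, Atp5b (log2 0.27), Cox4i1 (0.12) and Atp5a1 (0.08), and none passed 1.5-fold, where 8.74% of the 492 genes with that many UMIs were higher and 8.54% lower. All 6 mitochondrial members with 200 UMIs in stromal cells had every Bbs8-/- set above every Bbs8+/+ set, which held for 5.69% of those 492 genes and the reverse for 8.54%. Of these 6, 5 passed 1.5-fold: mt-Cytb (1.00), mt-Nd2 (0.99), mt-Nd5 (0.94), mt-Nd4 (0.90) and mt-Co1 (0.76). mt-Nd1 had a ratio of 0.44. With a limit of 50 UMIs, 17 of the 66 members of both kinds that reached it in stromal cells were higher and 8 lower, where 14.1% of the 2965 genes with that many UMIs were higher and 9.92% lower. With that limit in all cells, 9 of 74 nuclear members were higher and 12 lower, where 26.6% of 8776 genes were higher and 10.6% lower.

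**Figure D3:**
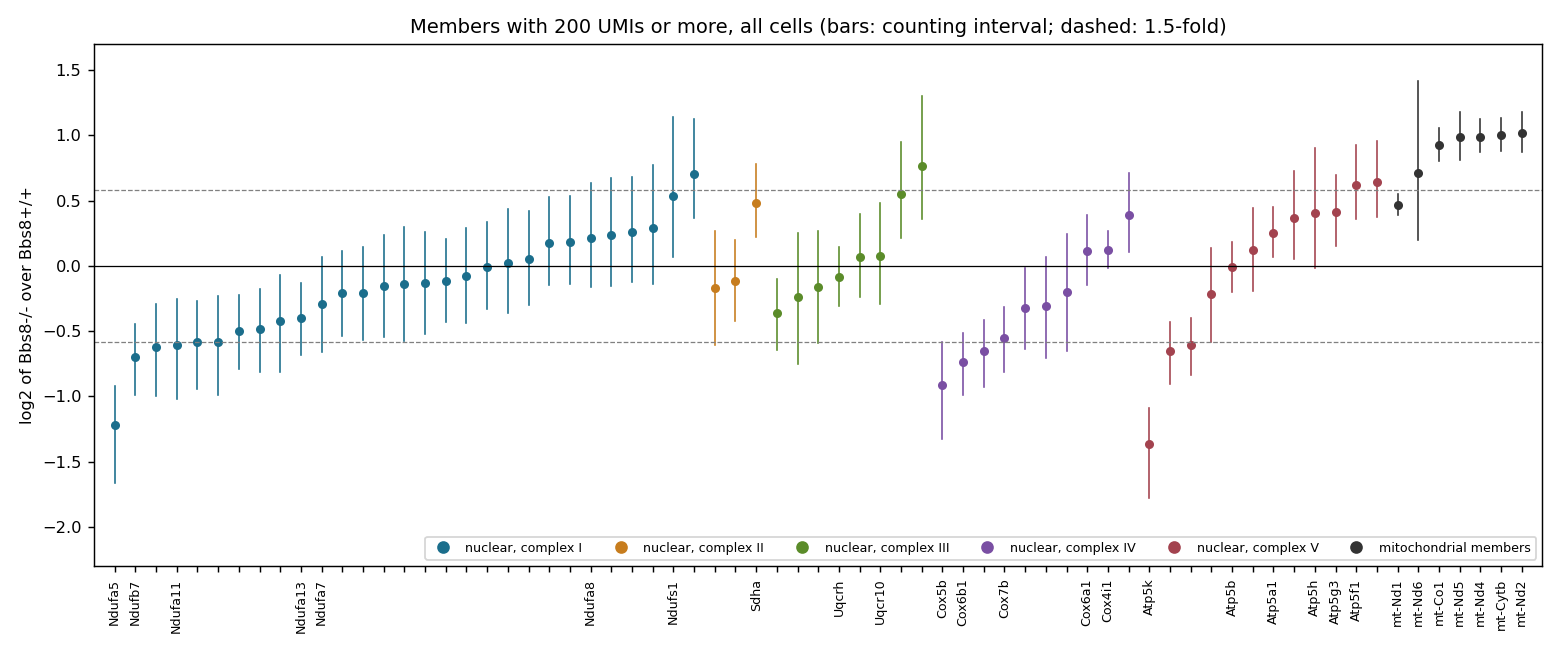
Log2 ratio of Bbs8-/- over Bbs8+/+ (5 CPM added) in all cells for each member with at least 200 UMIs, coloured by complex for the nuclear members and labelled in part, with exact 95% intervals of the plain ratio as bars and dashed lines at 1.5-fold. The mitochondrial members lie between 0.47 and 1.02, and the nuclear members between -1.36 and 0.77.

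Members lower in Bbs8-/- tended to have short transcripts. Over the 62 nuclear members, the log2 ratio and the transcript length of GENCODE vM21 had a Pearson correlation of 0.49 and a Spearman correlation of 0.48, whereas the 3571 other genes gave 0.06 and 0.08. These are descriptions over genes that share the same cells and depth. Of the 21 members under 700 bases, 4 had a ratio above 0 and the median was -0.24. Of the 24 with 700 to 1500 bases, 10 were above 0 with a median of -0.10, and of the 17 longer ones 11 were above 0 with a median of 0.18. Among all other genes the medians were -0.19, 0.00 and 0.12 in the same length ranges. Of those 3571 genes, 3095 had 1500 bases or more, so the correlations of members and other genes cover unlike mixes of length. Atp5k, the lowest member, has 371 bases and Sdha 2900.

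**Figure D4:**
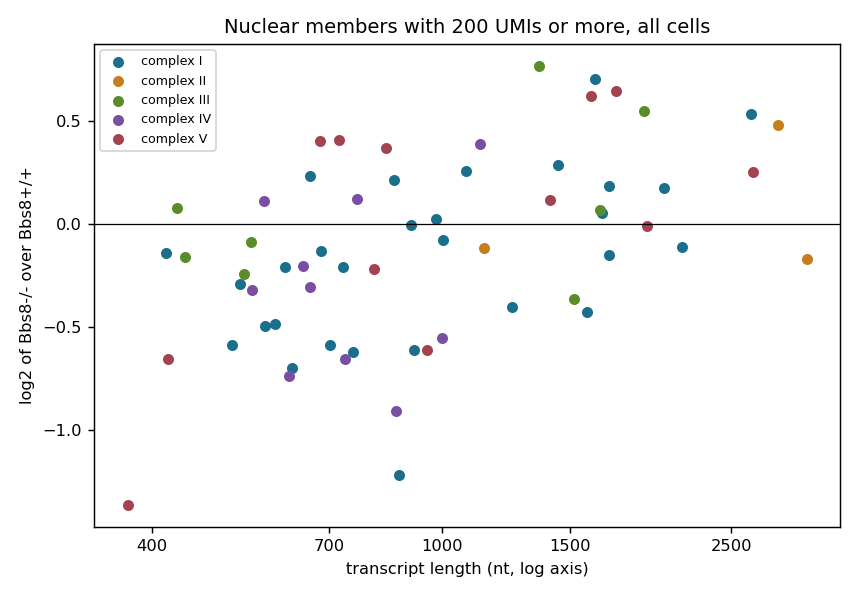
Log2 ratio of Bbs8-/- over Bbs8+/+ against transcript length in bases (log axis) for the 62 nuclear members with at least 200 UMIs in all cells, coloured by complex. The 21 members under 700 bases have a median of -0.24 and the 17 with 1500 bases or more a median of 0.18.

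Tissue-specific isoforms were rare, and the widely used isoform of each set carried the UMIs. Cox4i2, the lung and hypoxia isoform, and Ndufa4l2, an isoform induced by hypoxia, had 0 UMIs in both mice, which allows up to 0.954 CPM in Bbs8-/- and 4.19 in Bbs8+/+. The heart and muscle isoforms had few, with 2 UMIs of Cox6a2, 3 of Cox7a1 and 2 of Cox8b, and Cox6b2, the testis isoform, had 13, all in Bbs8-/-. The levels in Bbs8-/- (0.636, 0.954 and 0.636 CPM, and 4.13 for Cox6b2) lay under the 4.19 CPM that a count of 0 allows in Bbs8+/+, that of Cox6b2 only just. Their widely used partners were Cox6a1 (217 against 200 CPM), Cox7a2 (81.4 against 102), Cox8a (125 against 158) and Ndufa4 (101 against 117). Cox7a2l, which helps to join complexes III and IV, was 196 against 148 CPM. Of the genes for the identical c subunit of the ATP synthase rotor, Atp5g3 was 245 against 183 CPM and Atp5g1 15.9 against 12.6 CPM, and Atp5g2 was not analysed here.

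Some members stood out in a class. Ndufa7, a complex I accessory subunit, was 387 CPM in epithelial-like cells, beside a mean of 88.0 in the other classes (log2 2.08, 41 UMIs). Ndufa8, a complex I subunit of the intermembrane space, was 272 CPM in endothelial-like cells beside 81.8 (log2 1.67, 75 UMIs). Uqcr10, a small complex III subunit, was 316 CPM in mitotic-like cells beside 93.1 (24 UMIs). Atp5h, subunit d of the peripheral stalk, was 184 CPM in monocyte-like cells beside 67.9 (36 UMIs). The complex I core subunit Ndufs1 led in T cell-like cells (130 beside 53.6 CPM), Ndufa11 in B cell-like (187 beside 87.3), Cox7b in pericyte-like (454 beside 220) and Uqcrh in dendritic-like cells (802 beside 306, 20 UMIs). In macrophage-like and stromal cells the leading member was mt-Nd6, by 0.68 and 0.17 on the log2 scale. Each level is the mean of both mice with equal weight, so a few UMIs of a small Bbs8+/+ class can carry it. Ndufa11 had 28 UMIs in B cell-like and Cox7b 23 in pericyte-like cells, and whether a member led in both mice was not tested. All of these members rest on fewer than 100 UMIs and were picked as the highest of many values, so they describe these libraries.

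Nuclear members are known targets of the factor NRF1 and of ETS factors such as GABP. The promoters of 71 of the 85 nuclear members were found in RefSeq for GRCm38.p6, from 250 bases before to 50 after the start. The NRF1 core GCGCATGC, sought on both strands, was in 9 of the 71 (12.7%) and in 3.05% of all 27025 genes with a promoter of that length (2.71% of the 32851 promoters). The ETS core CCGGAAG was in 19 (26.8%) and in 9.93% of all those genes (8.86% of the promoters). A stretch upstream of the RefSeq start is shown for the lowest member of all cells, for a member of complex IV with a ratio near 0, for a subunit of complex II and for a lower member of complex I, with capitals for the NRF1 core on either strand.
Atp5k, chr5:108434425-108434464, minus strand: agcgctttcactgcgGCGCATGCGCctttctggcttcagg
Cox6a1, chr5:115349096-115349135, minus strand: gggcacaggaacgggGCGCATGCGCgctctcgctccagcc
Sdhb, chr4:140961202-140961239, plus strand: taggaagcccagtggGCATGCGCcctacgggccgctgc
Ndufa11, chr17:56717687-56717726, plus strand: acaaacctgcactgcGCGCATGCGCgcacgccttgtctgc

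By the gene positions of GENCODE vM21, 37 of the 38 bases shown for Sdhb and 24 of the 40 for Atp5k already lie inside the gene, and those of Cox6a1 and Ndufa11 lie outside. Atp5k (log2 -1.36), Cox6a1 (0.11), Sdhb (-0.11) and Ndufa11 (-0.61) share the core and had unlike ratios. Of the 62 members with at least 200 UMIs, 50 had a promoter entry. Among these the 8 with the NRF1 core had a median log2 ratio of -0.14 and the 42 without it -0.12. The 13 with the ETS core had a median of -0.16 and the 37 without it -0.11. A match is a stretch of letters and not a binding site, and an absent match says only that the letters are not in the window.

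The rest of the mitochondrial pathway in all cells was read from lists chosen with earlier results known, and each count is to be read beside the 20.2% of all genes with 200 UMIs that were higher and the 11.7% that were lower. Of the 17 genes of the TCA cycle, which supplies the electrons, 14 had at least 200 UMIs, 1 was higher by 1.5-fold (Pdhb of the pyruvate dehydrogenase complex, 59.5 against 25.1 CPM), none was lower and the median was 0.28. Of the 77 mitochondrial ribosome genes 18 had that many UMIs, 3 were higher (Mrpl11, Mrpl13 and Mrps7) and none lower, with a median of 0.04. Of 8 genes for mitochondrial DNA expression, 2 had that many UMIs, and Polg, the polymerase that copies mitochondrial DNA, was 68.4 against 36.3 CPM. Of 5 genes for uncoupling and nucleotide exchange, 4 were measured to that depth, and the phosphate carrier Slc25a3 was higher (298 against 191 CPM, with no overlap of the sets). The electron carriers (3 of 5 measured), the assembly factors (5 of 39) and the biogenesis regulators (2 of 6) had none past 1.5-fold, with medians of -0.02, -0.22 and 0.04. Of 8 antioxidant genes 5 were measured and Cat, which breaks down hydrogen peroxide, was higher (65.5 against 33.5 CPM). Of 14 glycolysis genes 8 were measured, with a median of 0.30, and the enolase Eno1 was higher (74.7 against 36.3 CPM, no overlap). These single genes, too, are named after their values were seen.

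The genes whose symbol starts with Rpl or Rps had 54 of 94 with at least 200 UMIs, of which 17 were higher and 6 lower (background 20.2% and 11.7%), with a median of 0.13. Without the 16 of them that are S6 kinases, a binding protein or paralogs of ribosomal proteins, 17 of 50 were higher and 5 lower, with a median of 0.18. The widest difference was that of Rpl34, 9.86 CPM in Bbs8-/- against 292 in Bbs8+/+ (31 and 209 UMIs), with no overlap of the sets. Rps15a was 113 against 395 CPM, also with no overlap. Many genes of this family have processed copies across the genome, so single values for them are uncertain.

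Depth differed between cells, so the sums were set against the UMIs per cell. In 5 depth ranges, from 117 to 182 UMIs up to 456 to 2791, the mitochondrial sum was 11176 CPM in the lowest and 8277 in the highest in Bbs8-/- and 6448 and 4613 CPM in Bbs8+/+, and Bbs8-/- was above Bbs8+/+ in every range. The nuclear sum was 9120 to 10212 CPM in Bbs8-/- and 9470 to 10407 CPM in Bbs8+/+ over the ranges. At least 1 mitochondrial member UMI was found in 86.7% of Bbs8-/- and 73.9% of Bbs8+/+ cells. After each cell was thinned to 200 UMIs, which left out 2719 Bbs8-/- and 385 Bbs8+/+ cells, the shares were 79.4% and 61.1%. For the nuclear members the shares were 87.8% and 87.6%, and 81.6% and 82.2% after thinning. Free RNA can add UMIs to a cell, and no class here lacks these genes to serve as a background.

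**Figure D5:**
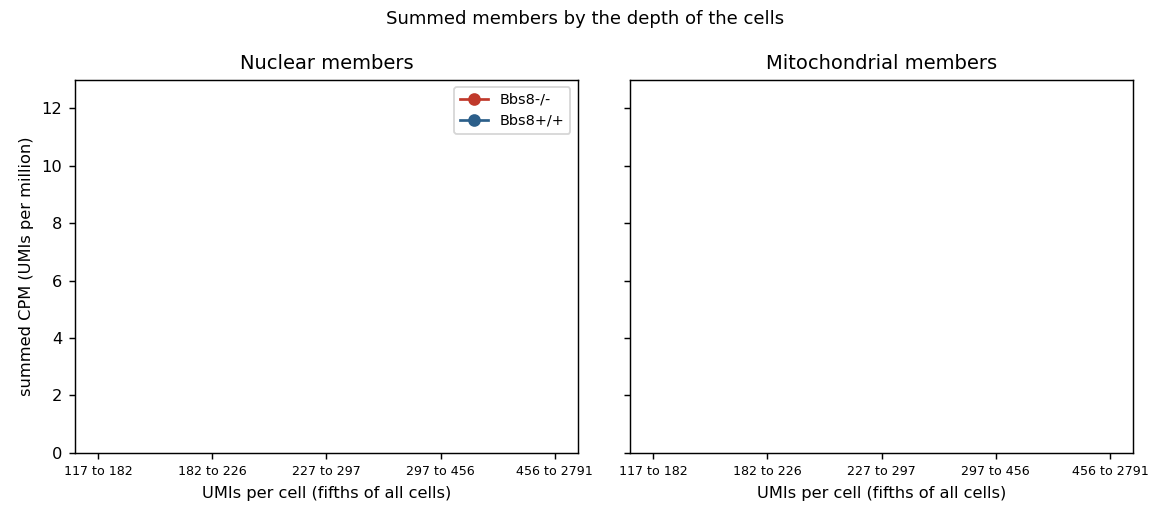
Summed CPM of nuclear and mitochondrial members in cells grouped by their UMIs into 5 depth ranges. The vertical axis ends below all of these sums, so the line for each genotype lies outside the panels. By the counts, the mitochondrial sum of Bbs8-/- is above that of Bbs8+/+ in all 5 ranges. It is 11176 against 6448 CPM in the lowest and 8277 against 4613 CPM in the highest.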

How the data were processed

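The deposited values were UMI counts per gene and cell, made by the authors with bcl2fastq 2.20, dropSeqPipe and STAR on mm10, and filtered by genes per cell and mitochondrial share. Whether the authors' depth downsampling came before deposit is not given in the sources used here. 0 columns stayed unmapped. Doublets were kept, and no caller was run. Per barcode set, the counts were log-normalised and integrated in Seurat 5.3.0 (R 4.3.3) with 2000 features (no member or mt- row), 30 dimensions and resolution 0.8, and clusters under 60 cells were left out. A cluster took the name of a marker list with a mean log2 fold of at least 1 (pseudocount 20 CPM), a threshold set after the clusters were seen, so names may differ from those of the study. Counts were summed per mouse and class with numpy 2.4.6 and scipy 1.17.1 in Python 3.11.15. No test was made. A gene was called past 1.5-fold with at least 200 UMIs over both mice (pseudocount 5 CPM).

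Named with values were all mitochondrial members, the nuclear members with the most UMIs in all and in each complex, the 5 highest and 5 lowest ratios, tissue isoforms and the leading member of each class. The members and lists were chosen with earlier results of these data known. Alternatives used edgeR 4.0.16 (TMM) and DESeq2 1.42.0 (size factors), other filters and depths, and leaving out each set. No name links a set code to the p1 or p2 of a sample label, so none was assigned. A result of 1 member is not reported here.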

Additional observations from a re-analysis of the deposited data

Results flagged for a closer look

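A barcode set stood apart from the 4 others of its genotype, by Dixon's criterion for 5 values, in 3 of 58 groups of sets looked at, and chance alone marks about 1 in 20 such groups. The nuclear sum of B cell-like cells was 7806 CPM in the Bbs8-/- set KO5_p3 (220 cells), where the others lay at 8449 to 8607 CPM. The same sum was 14344 CPM in the Bbs8+/+ set WT3_p3, which held 5 such cells, where the others lay at 9554 to 10737 CPM. The mitochondrial sum of macrophage-like cells was 2948 CPM in the Bbs8+/+ set WT3_p1 (21 cells), where the others lay at 5651 to 6645 CPM. WT3_p3 held the fewest B cell-like cells of the Bbs8+/+ sets, but not so WT3_p1 for macrophage-like cells, since WT3_p3 with 13 of them lay at 6645 CPM.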

How the results depend on the processing

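The mitochondrial sum stayed above 0 in all cells under 24 alternatives (log2 0.64 to 0.96) and in stromal cells under 30 (0.60 to 0.98). The nuclear sum ranged from -0.24 to 0.01 in all cells and from -0.09 to 0.23 in stromal cells, so it had no fixed side. With DESeq2 size factors the ratios of all cells were 0.64 for the mitochondrial and -0.24 for the nuclear sum. With at least 50 UMIs, 17 of 66 members were higher and 8 lower in stromal cells, in place of 5 and 0 (14.1% and 9.92% of all such genes), and 9 of 74 nuclear members were higher in all cells, in place of 4 (26.6% of all such genes). TMM factors and DESeq2 size factors each left 1 of 62 nuclear members higher (14.2% and 13.8% of all genes), and a pseudocount of 20 CPM left 7 lower in place of 11 (9.32% of all genes). Leaving out 1 set at a time gave 5 to 12 lower and 4 to 5 higher nuclear members. Of all genes, 11.2% to 13.1% were then lower and 18.8% to 21.3% higher. The 5 lower members came without WT4_p2 (8.2% of members, beside 13.1% of all genes). The nuclear complex III sum was -0.11 with TMM factors and -0.13 with DESeq2 size factors, and complex V -0.13 with the latter. Calling classes by markers without clusters gave -0.82 for the mitochondrial sum of dendritic-like cells, and thinning gave -0.20 for pericyte-like cells, whereas every other alternative of the named classes kept it above 0. The causes were not tested. Without members mostly copied in annotated nuclear transcripts, the mitochondrial ratio was 0.78 in all cells. Without any member so copied in the last 300 bases, the mitochondrial ratio was 0.76 in all cells and 0.72 in stromal cells. These, the filter on mitotic markers, the TMM ratios of mitochondrial rRNA by class, the weighting by class, the complex sums and the counts over all cells were alternatives chosen after the data were seen. Shallow cells and 1 mouse for each genotype limit all values, and classes with few Bbs8+/+ cells limit their own. No paired analysis was possible because no result comes from a test and the p1 and p2 of the labels could not be linked by name to the set codes.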
